A study of Mus musculus with 6 samples.

Results

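Blimp-1 and the Id and E proteins were examined together with 4 zinc finger factors that act on the same sequences or lineages. The 10 genes were chosen by symbol: *Prdm1*, which encodes Blimp-1, the Id genes *Id2* and *Id3*, the E protein genes *Tcf3*, *Tcf4* and *Tcf12*, the E-box repressors *Zeb1* and *Zeb2*, and the BTB zinc finger genes *Zbtb7b* and *Zbtb16*. All 10 were found among the 14744 genes of the table. RNA-seq had been done on T follicular helper (Tfh) cells, which provide help to germinal center B cells. They were sorted as CD4+B220-CD44+PD-1+CXCR5+ cells from the mesenteric lymph nodes of WT and Bach2-cKO mice. There were 3 samples in each group and 10000 to 30000 cells for each sample. The labels give the strain as C57BL/6, while the study's text gives C57BL/6J and an age of 2 to 3 months. The Bach2-cKO mice were Bach2 fl/fl Cd4-cre, so that Cre acts in T cells from the thymic stage at which *Cd4* is switched on. The study's text designates Cd4-Cre littermates as WT, while the labels say only WT, so whether both groups carried Cre is not given by the labels. The comparison asks how these regulators differ between Tfh cells with and without the Bach2 deletion.

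Blimp-1 is a transcriptional repressor that drives plasma cell and effector T cell differentiation, and Blimp-1 and Bcl6, the lineage-defining factor of Tfh cells, repress each other. Bach2 is a repressor known to act on *Prdm1* in B cells. E proteins are helix-loop-helix activators that bind E-box sequences as dimers, and Id proteins, which lack a DNA-binding region, pair with them and keep them off DNA. In CD4+ T cells E proteins favor the Tfh fate and *Cxcr5* expression, whereas Id2 is linked to Th1 cells.

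The deleted gene was examined first. *Bach2* was at 233, 222 and 105 normalized read counts in WT replicates 1, 2 and 3 and at 399, 763 and 591 in replicates 1, 2 and 3 labelled Bach2-cKO. Each library labelled Bach2-cKO was thus above each WT library, with a log2 difference of 1.68 (standard error 0.37, limma adjusted p = 0.141). Reads of a gene are counted over all its exons, those outside the deletion included, and the transcripts *Bach2it1* and *Bach2os* overlap the gene. *Bach2it1* was at 2.02, 19.1 and 5.20 in WT and at 50.3, 67.0 and 32.7 in the libraries labelled Bach2-cKO. *Bach2os* was at 0, 2.24 and 4.16 in WT and at 1.48, 6.70 and 18.4 in the libraries labelled Bach2-cKO. The part of such exons and transcripts in the *Bach2* values was not tested. Because the counts of the targeted gene were not lower under this label, the name libraries labelled Bach2-cKO is used throughout. Every direction given here rests on these labels, which gene-level counts can neither settle nor refute. The study's text reports a lower share of interferon gamma-secreting Tfh cells in Bach2-deficient mice by flow cytometry, and *Ifng* was lower here in the libraries labelled Bach2-cKO (log2 difference -2.02). In the same libraries, as the study's text also gives from this RNA-seq, *Foxp3* was lower (-1.76) and *Gata3* higher (1.48).

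A normalized read count is the number of reads of a gene divided by a size factor of its library. In each of the 6 libraries 100% of the values were whole multiples of 1 step, with a tolerance of 0.01 of a step. From the steps, 6585742 and 7823717 reads were obtained for WT replicates 2 and 3, and 5045131, 10987752 and 7197242 for replicates 1, 2 and 3 labelled Bach2-cKO. WT replicate 1 had a step of 1.01, which was not accepted as recovered reads, and its depth would be 7737531 reads if 1 step were 1 read. WT replicate 1 stood apart, with 11648 genes above 0, where the other 5 libraries had 13111 to 13567. Transcript length and the log2 difference had a Spearman's rho of 0.320 over 11264 genes, a description across genes, which are not independent replicates. Differences of the 9 genes tested of the 10 are therefore also given after a smooth trend in transcript length and GC content had been taken off each library. For *Bach2* the difference was then 1.13 and the groups overlapped. Removing the trend moved the median log2 difference of all genes from 0.082 to -0.037.

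None of the 10 genes passed the thresholds of the study in limma, an adjusted p below 0.01 together with a change over 2-fold. Neither did any of the 11296 genes tested (0%). The study applied these thresholds with DESeq2 to 3 replicates of each group, and its text reports higher and lower genes past them. That fit was not repeated here on all 6 libraries. *Zbtb16* was too low to be tested, and 9 of the 10 genes were. Of these 9, 1 gene, *Zbtb7b*, was at an unadjusted p under 0.05, against 20.4% of all genes in either direction and 10.1% higher in the libraries labelled Bach2-cKO. For 4 of the 9, *Tcf3*, *Tcf12*, *Zeb2* and *Zbtb7b*, the 3 libraries labelled Bach2-cKO all lay above the 3 WT libraries. The share of all genes with groups that did not overlap was 26.9%, and 14.6% in this direction. The median log2 difference of the 9 genes was 0.44, against 0.082 for all genes tested, with 6 above 0 and 3 below. After the trend had been removed, the medians were 0.036 and -0.037, and 1 of the 9 genes, *Zeb2*, had groups that did not overlap, against 21.2% of all genes then, and 8.94% in this direction. Counts on recovered reads of 5 libraries gave 0 genes past the thresholds in edgeR, and 33 higher and 54 lower genes in DESeq2, with none of the 9 genes tested among them. An exact permutation test of 3 libraries against 3 cannot give a 2-sided p under 0.1. In RNA from sorted cells in bulk, fewer cells of a type and less RNA per cell cannot be told apart. The labels name separate samples but not separate animals, so the p-values measure the spread between these samples.

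**Figure D1:**
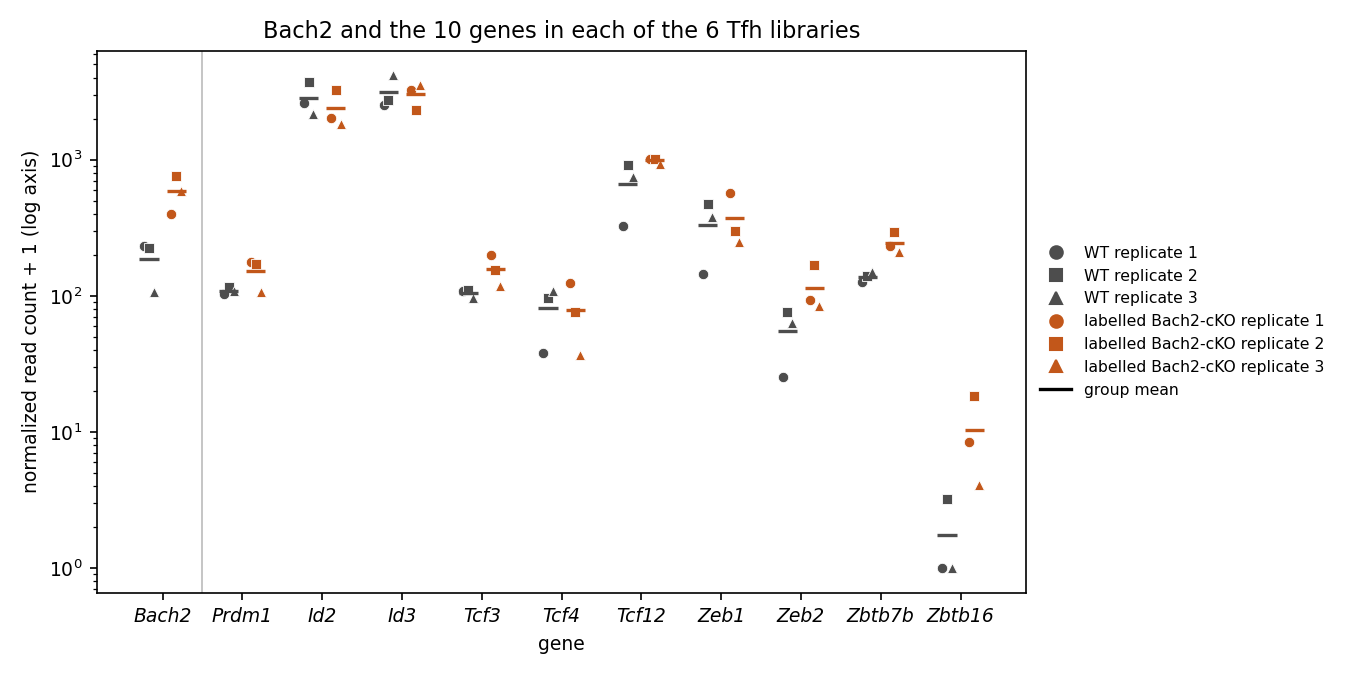
Normalized read count plus 1 (log axis) of *Bach2* and the 10 genes in each of the 6 Tfh libraries, with 1 point for each library and a bar at the group mean. *Id2* and *Id3* lie between 1827 and 4156 normalized read counts in all 6 libraries, and *Zbtb16* lies under 18.

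The levels of the genes were compared as normalized read counts per kilobase of the longest transcript. In WT libraries *Id3* was the highest at 2465 per kilobase, rank 314 of 11264 genes, followed by *Id2* at 1444 per kilobase, rank 518. *Tcf12* followed at 105 per kilobase, *Zeb1* at 57.0, *Tcf3* at 35.3, *Zbtb7b* at 31.7 and *Prdm1* at 20.5. The lowest were *Tcf4* at 9.32, *Zeb2* at 5.91 and *Zbtb16* at 0.146 per kilobase. In this order the WT libraries of *Tcf12* and *Zeb1*, of *Zeb1* and *Tcf3*, of *Tcf3* and *Zbtb7b*, and of *Tcf4* and *Zeb2* overlapped, while the other neighbors did not. The order was led by *Id3*, *Id2* and *Tcf12* without overlap in the libraries labelled Bach2-cKO too.

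**Figure D2:**
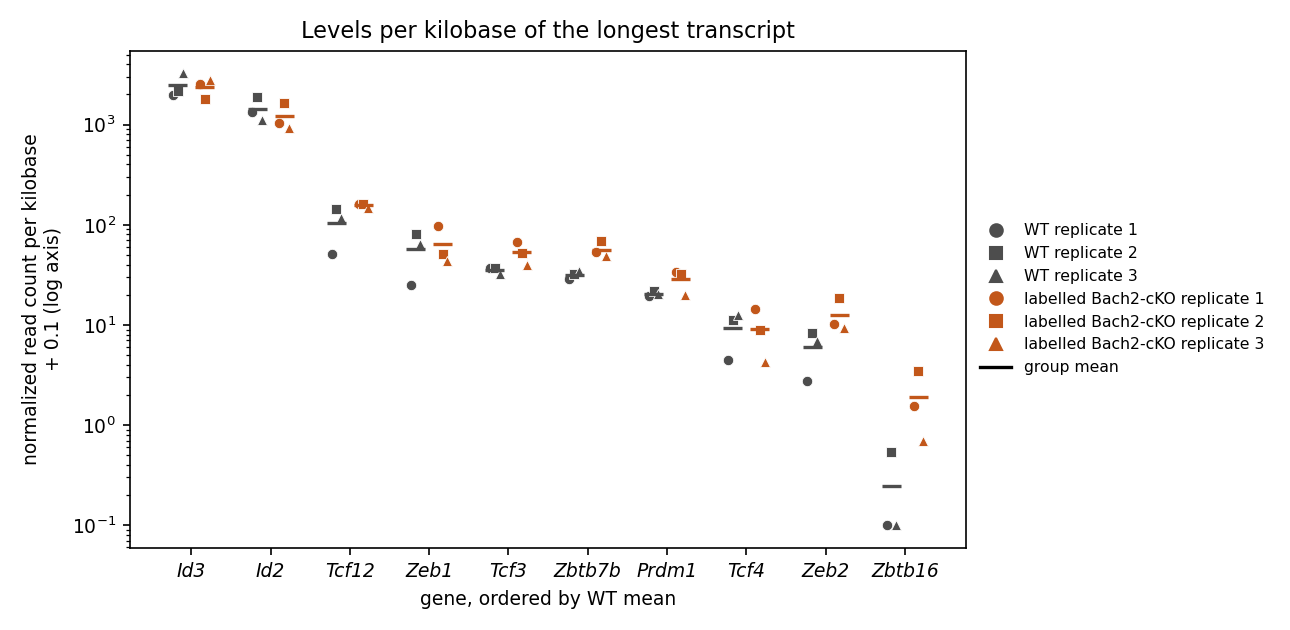
Normalized read count per kilobase of the longest transcript plus 0.1 (log axis) for the 10 genes, ordered by the WT mean, with 1 point for each library and a bar at the group mean. The Id genes lie above the other 8 genes in every library, and *Zbtb16* is the lowest, with 2 WT libraries at 0.

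*Prdm1* lies at chr10:44437177-44528501 on the minus strand of GRCm38. Its normalized read counts were 102, 116 and 107 in WT replicates 1, 2 and 3 and 176, 172 and 105 in replicates 1, 2 and 3 labelled Bach2-cKO. Replicates 1 and 2 labelled Bach2-cKO were above all WT libraries and replicate 3 lay among them, so the groups overlapped. The WT mean was 108 ± 6.86 (SD, n = 3), against 151 ± 39.5 (SD, n = 3) for the libraries labelled Bach2-cKO. The log2 difference of 0.44 (standard error 0.36, 95% interval -0.36 to 1.24, limma adjusted p = 0.483) was within the spread between libraries. It came to 0.088 after the length and GC trend had been removed, and to 0.68 without replicate 3 labelled Bach2-cKO. The tested genes with the most similar profile over the 6 libraries were *Poldip3*, *Cnot3* and *Pin4*, with root mean square differences of 0.0575 to 0.0593 on the centered log2 scale, against 0.329 for the spread of *Prdm1* itself. All 3 were, like *Prdm1*, highest in replicates 1 and 2 labelled Bach2-cKO.

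Factors known to act on *Prdm1* were counted as 2 lists. Of all genes, 20.4% were at an unadjusted p under 0.05 in either direction, and 10.1% were higher in the libraries labelled Bach2-cKO. These shares are the comparison for the counts of this and every later list. Of 9 listed activators, 1 was higher and 1 lower at an unadjusted p under 0.05, with a median log2 difference of 0.19 (-0.14 with the trend removed). *Stat5b*, which transmits interleukin-2 signals, had a log2 difference of 0.74 (limma adjusted p = 0.157; 0.21 with the trend removed), and *Batf*, an AP-1 factor, one of -0.67 (limma adjusted p = 0.185). Of 7 listed repressors of *Prdm1*, 4 were higher and 0 lower, with a median of 0.74 (0.41 with the trend removed). The 3 of smallest p were *Bach2*, *Mafg*, a small Maf partner of Bach2, at a log2 difference of 0.89 (limma adjusted p = 0.155; 0.28 with the trend removed), and *Bcl6*. *Bcl6* was at 436, 342 and 501 normalized read counts in WT and at 792, 818 and 537 in replicates 1, 2 and 3 labelled Bach2-cKO, groups that did not overlap (log2 difference 0.74, limma adjusted p = 0.173; 0.41 with the trend removed, where the groups overlapped).

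Per kilobase, *Prdm1* was below *Bcl6* in all 6 libraries. The log2 ratio of *Prdm1* to *Bcl6* was -2.52, -1.99 and -2.65 in WT replicates 1, 2 and 3 and -2.60, -2.68 and -2.77 in replicates 1, 2 and 3 labelled Bach2-cKO. The groups overlapped, WT replicate 2 being the highest, and the difference of -0.30 became -0.097 without that library. With quantile normalization the groups were apart, at a difference of -0.46.

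Genes that Blimp-1 is known to repress showed no single direction beside *Prdm1*. Of the 9 tested, 2 were higher, *Bcl6* and *Tcf7*, and 1 lower, *Ifng*, at an unadjusted p under 0.05, with a median log2 difference of 0.25 (-0.26 with the trend removed). *Tcf7*, a Tfh-promoting factor, had a log2 difference of 0.50 (limma adjusted p = 0.200) and *Ifng*, the Th1 cytokine, one of -2.02 (limma adjusted p = 0.141). In the coinhibitory module that Blimp-1 and c-Maf promote in T cells, 0 of 7 tested genes were higher and 1 was lower, *Il10* (log2 difference -1.38, limma adjusted p = 0.204; -0.91 with the trend removed), with a median of -0.32 (-0.17 with the trend removed). None of 8 other PRDM genes was at an unadjusted p under 0.05, and their median was 0.73 (0.44 with the trend removed).

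*Prdm1* is also abundant in plasma cells, which a sort for CD4+ cells should exclude. The 5 plasma cell markers in the table summed to 317, 29115 and 7066 normalized read counts in WT replicates 1, 2 and 3 and to 2207, 529 and 565 in replicates 1, 2 and 3 labelled Bach2-cKO, most of it *Jchain*. *Prdm1* was at 116 in WT replicate 2, where this sum was highest, and at 102 and 107 in the other WT libraries. The part of plasma cells in the *Prdm1* values was not tested. The 8 B cell markers summed to 206, 731 and 494 in WT and to 211, 257 and 273 in the libraries labelled Bach2-cKO, with *Cd79b* the most abundant. Of the 3 plasma cell and 5 B cell markers tested, 0 were higher and 1 was lower at an unadjusted p under 0.05, *Ms4a1* (log2 difference -2.83, limma adjusted p = 0.155).

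To show the sequence at the start of *Prdm1*, the RefSeq promoter table (GRCm38.p6) was searched on both strands for TGAGTCA, the core bound by AP-1 and Bach factors, and for CAGGTG, an E-box bound by E proteins and ZEB factors. Windows from 250 bases before to 50 bases after a start were used, 13 of them for 7 of the 10 genes, and *Tcf4*, *Zeb1* and *Zbtb16* were not analysed here. The windows of *Zbtb7b* are not described. TGAGTCA or its reverse complement TGACTCA was found in 5.20% of all 32851 windows, and CAGGTG or CACCTG in 20.2%. Capitals mark these letters. The *Prdm1* stretch, chr10:44458749-44458998 on the minus strand, is the 250 bases before the start and lies within the gene between annotated exons. It holds CAGGTG at position -87 from the start and no TGAGTCA.
Prdm1: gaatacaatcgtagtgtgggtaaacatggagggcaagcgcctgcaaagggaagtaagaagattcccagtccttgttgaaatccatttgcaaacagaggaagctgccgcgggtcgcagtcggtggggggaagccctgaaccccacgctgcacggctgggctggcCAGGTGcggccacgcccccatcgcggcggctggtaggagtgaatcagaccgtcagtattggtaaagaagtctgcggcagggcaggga
The *Zeb2* window at chr2:45110228-45110527 holds TGAGTCA at -189 and TGACTCA at -132, and the *Tcf12* window at chr9:72111152-72111451 holds TGAGTCA at 14. The other 3 windows of *Zeb2* and 2 of *Tcf12* hold neither set of letters. The stretches around the matched letters, all on the minus strand and in annotated exons, are chr2:45110449-45110477, chr2:45110392-45110420 and chr9:72111171-72111199.
Zeb2 at -189: ccgcctagcctTGAGTCAagcagtcttac
Zeb2 at -132: gtcaggagttaTGACTCAttttgaagatg
Tcf12 at 14: tgctgagcgagTGAGTCActtggtctccg
The windows of *Id2*, *Id3* and *Tcf3* hold neither set of letters. A match gives the letters of a window and was not tested as a binding site.

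*Id2* lies at chr12:25093799-25097140 on the minus strand. Its normalized read counts were 2625, 3725 and 2181 in WT replicates 1, 2 and 3 and 2025, 3272 and 1827 in replicates 1, 2 and 3 labelled Bach2-cKO. The groups overlapped, with WT replicate 2 and replicate 2 labelled Bach2-cKO the highest of the 6 libraries. The log2 difference was -0.27 (standard error 0.27, 95% interval -0.88 to 0.34, limma adjusted p = 0.574), and it turned to 0.12 once the trend was removed and to 0.22 with library weights. It was -0.059 without WT replicate 2, -0.45 without WT replicate 3, and -0.53 and -0.11 without replicates 2 and 3 labelled Bach2-cKO.

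Of the markers of other cells, which the sort should exclude, the myeloid and the innate-like and NK sums were high in the same libraries as *Id2*. The 8 myeloid markers in the table summed to 5846, 12911 and 7365 normalized read counts in WT replicates 1, 2 and 3 and to 5625, 10423 and 4714 in replicates 1, 2 and 3 labelled Bach2-cKO. The most abundant by the mean over the 6 libraries was *Cst3*, although *Lyz2* had the higher mean in WT, 4168 against 3627. *Cst3* is also among the tested genes closest in profile to *Id2*, with *Bpnt1* (root mean square differences of up to 0.129, against 0.370 for *Id2* itself). *Id2* is expressed in innate lymphocytes and dendritic cells as well as in T cells. The 13 innate-like and NK markers summed to 2765, 6597 and 4342 in WT and to 3572, 6883 and 2798 in the libraries labelled Bach2-cKO, with *Tyrobp* the most abundant by the mean over the 6 libraries and *Cd160* in WT. Both sums were thus highest in WT replicate 2 and in replicate 2 labelled Bach2-cKO, as *Id2* was. In WT replicate 2 *Tyrobp* gave 2171 and *Fcer1g* 1646 of the innate-like and NK sum. In replicate 2 labelled Bach2-cKO they gave 2866 and 2202. Whether the 2 sums reflect separate cell types was not tested, nor was their part in the *Id2* values. At an unadjusted p under 0.05, 0 of 8 myeloid markers were higher and 1 was lower, *Cd68* (log2 difference -0.96, limma adjusted p = 0.204). Of the 13 innate-like and NK markers 0 were higher and 2 were lower, *Cd160* at -0.94 (limma adjusted p = 0.195) and *Il23r* at -2.78 (limma adjusted p = 0.239).

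**Figure D3:**
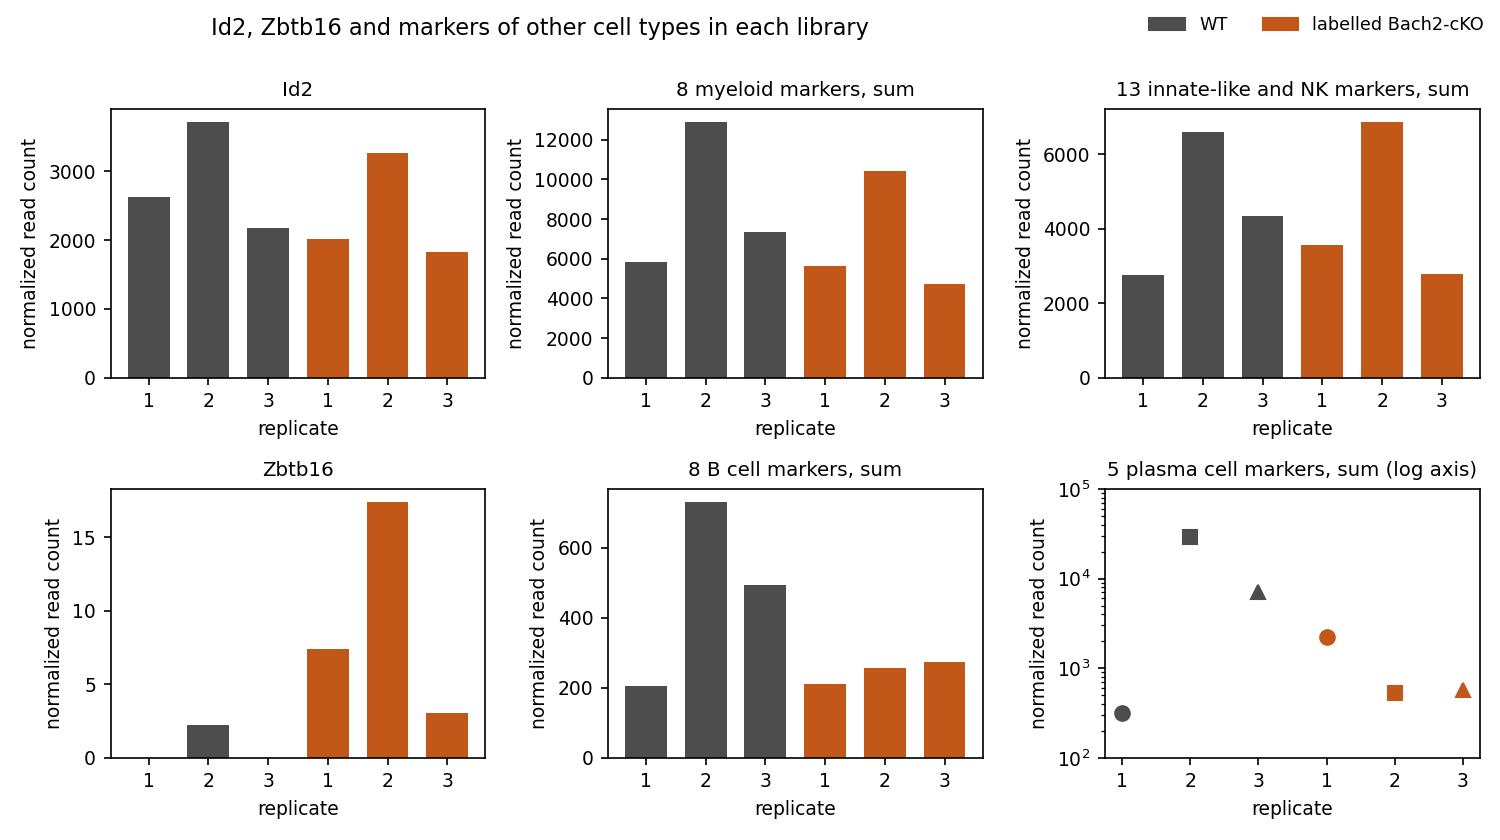
Normalized read counts of *Id2*, *Zbtb16* and the summed markers of other cell types, by replicate, with WT in gray and the libraries labelled Bach2-cKO in orange (plasma cell markers as points on a log axis, the rest as bars from 0). Replicate 2 of each group is the highest of its group for *Id2*, *Zbtb16*, the myeloid sum and the innate-like and NK sum.

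*Id3* lies at chr4:136143497-136145755 on the plus strand. It was at 2531, 2763 and 4156 normalized read counts in WT replicates 1, 2 and 3 and at 3220, 2304 and 3554 in replicates 1, 2 and 3 labelled Bach2-cKO. The groups overlapped, with WT replicate 3 the highest library and replicate 2 labelled Bach2-cKO the lowest. The log2 difference was -0.047 (standard error 0.25, 95% interval -0.60 to 0.50, limma adjusted p = 0.930), a value whose sign turned to 0.13 with quantile normalization and to 0.025 once the trend was removed. With library weights it was -0.55 (limma adjusted p = 0.0254). Its closest profiles were those of *2700097o09rik*, *Nqo2* and *2210016l21rik* (root mean square differences of 0.0818 to 0.0891, against 0.291 for *Id3* itself). The log2 ratio of *Id2* to *Id3* per kilobase was -0.57, -0.19 and -1.55 in WT replicates 1, 2 and 3 and -1.29, -0.12 and -1.58 in replicates 1, 2 and 3 labelled Bach2-cKO. Within each group replicate 2 had the highest ratio and replicate 3 the lowest, and the difference between the groups of -0.23 was smaller than the SD of either, 0.70 and 0.78 (n = 3 each). It turned to 0.096 with the trend removed and ran from -0.67 (without replicate 2 labelled Bach2-cKO) to 0.067 (without replicate 3 labelled Bach2-cKO) when each library was left out.

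*Tcf12*, which encodes HEB, gave most of the E protein reads. It lies at chr9:71842688-72111871 on the minus strand and was at 324, 911 and 743 normalized read counts in WT replicates 1, 2 and 3 and at 1011, 1018 and 935 in replicates 1, 2 and 3 labelled Bach2-cKO. The groups did not overlap, but the gap between 911 and 935 was small, and WT replicate 1 was far below the other 5 libraries. The means were 659 ± 302 (SD, n = 3) and 988 ± 46.3 (SD, n = 3), with a log2 difference of 0.71 (standard error 0.34, 95% interval -0.055 to 1.47, limma adjusted p = 0.270). Without WT replicate 1 the difference was 0.26, and without WT replicate 2 it was 1.01. It was 0.37 with the trend removed, where the groups overlapped. The transcript *A430027c01rik*, on the same strand within *Tcf12*, was at 0, 55.0 and 39.5 in WT and at 121, 40.9 and 67.5 in the libraries labelled Bach2-cKO, and reads of the 2 genes may not be separable.

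*Tcf3*, which encodes E2A, lies at chr10:80409514-80433647 on the minus strand. Its normalized read counts were 108, 109 and 95.7 in WT replicates 1, 2 and 3 and 200, 153 and 117 in replicates 1, 2 and 3 labelled Bach2-cKO. All libraries labelled Bach2-cKO were above all WT libraries, with means of 156 ± 41.6 (SD, n = 3) and 104 ± 7.37 (SD, n = 3). The log2 difference of 0.55 (standard error 0.36, 95% interval -0.24 to 1.34, limma adjusted p = 0.383) came to 0.024 with the trend removed, where the groups overlapped, and to 0.36 without replicate 1 labelled Bach2-cKO. Its longest transcript has a GC content of 61.0%, the highest of the 10 genes.

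*Tcf4*, which encodes E2-2, was at 37.3, 95.3 and 107 normalized read counts in WT replicates 1, 2 and 3 and at 123, 75.7 and 35.8 in replicates 1, 2 and 3 labelled Bach2-cKO. The groups overlapped, with replicate 1 labelled Bach2-cKO the highest library and replicate 3 labelled Bach2-cKO the lowest, followed by WT replicate 1. The log2 difference was -0.065 (standard error 0.60, 95% interval -1.39 to 1.26, limma adjusted p = 0.963), and it ran from -0.54 to 0.40 when each library was left out in turn. It was -0.37 with the trend removed. *Tcf4* is also the E protein that defines plasmacytoid dendritic cells, which carry B220 and which the sort should exclude. The 5 markers of these cells, of which *Bst2* was the most abundant, summed to 1406, 1909 and 2082 in WT and to 1352, 2265 and 1372 in the libraries labelled Bach2-cKO. None of the 5 was at an unadjusted p under 0.05, and their part in the *Tcf4* values was not tested.

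The balance of Id to E protein transcripts was taken as the log2 ratio of the sum of *Id2* and *Id3* to the sum of *Tcf3*, *Tcf4* and *Tcf12*, per kilobase, within each library. It was 5.16, 4.40 and 4.74 in WT replicates 1, 2 and 3 and 3.87, 3.96 and 4.27 in replicates 1, 2 and 3 labelled Bach2-cKO. Id transcripts exceeded E protein transcripts in all 6 libraries, and all 3 WT ratios were above all 3 of the libraries labelled Bach2-cKO. The means were 4.77 ± 0.39 (SD, n = 3) and 4.03 ± 0.21 (SD, n = 3), a difference of -0.73. The Id sum was 3314, 4054 and 4360 per kilobase in WT and 3548, 3464 and 3709 in the libraries labelled Bach2-cKO, which overlap. The E protein sum was 92.4, 193 and 163 in WT and 242, 222 and 192 in the libraries labelled Bach2-cKO, which overlap at their edges, and its lowest value was that of WT replicate 1. *Tcf12* made up 55.7 to 77.3% of the E protein sum over the 6 libraries.

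This difference was -0.77 when counts were not divided by length and -0.56 with quantile normalization, with the groups apart in both. It was -0.53 without WT replicate 1 and -0.92 without WT replicate 2. With the length and GC trend removed, the ratios were 4.73, 4.30 and 4.46 in WT and 4.44, 4.33 and 4.22 in the libraries labelled Bach2-cKO, so that the groups overlapped and the difference came to -0.17. The trend was removed for length and GC content together, and their parts were not told apart.

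**Figure D4:**
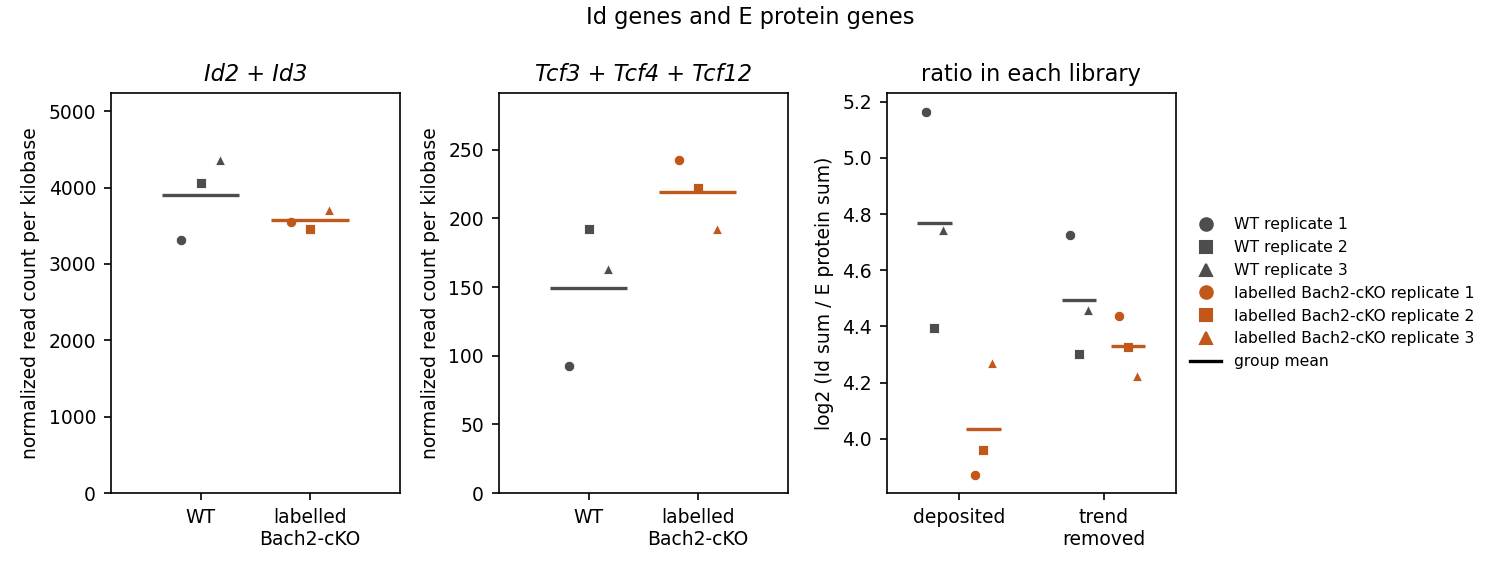
Summed normalized read counts per kilobase of *Id2* and *Id3* (left) and of *Tcf3*, *Tcf4* and *Tcf12* (middle), and the log2 ratio of these sums (right) as deposited and after removal of the length and GC trend, with 1 point for each library and a bar at the group mean. The ratios of the groups are apart as deposited and overlap with the trend removed.

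Of 9 tested genes that E proteins are known to act on, 2 were higher and 0 lower at an unadjusted p under 0.05, with a median log2 difference of 0.24 (-0.029 with the trend removed). *Dtx1*, a Notch target, had a log2 difference of 0.75 (limma adjusted p = 0.158; -0.052 with the trend removed), and *Gfi1*, a repressor, one of 1.29 (limma adjusted p = 0.204). *Cxcr5*, an E protein target that was used in the sort, was at 1613, 1444 and 2039 in WT and at 2028, 1271 and 2207 in the libraries labelled Bach2-cKO, which overlap. *Rag2* was at 0 in all 6 libraries. Among 17 other helix-loop-helix factors tested, 2 were higher and 0 lower, *Usf2* (log2 difference 1.84, limma adjusted p = 0.141) and *Mnt* (1.95, limma adjusted p = 0.204; 1.15 with the trend removed), with a median of 0.19 (0.021 with the trend removed).

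*Zeb1* and *Zeb2* encode repressors that compete with E proteins for E-boxes and recruit corepressors. *Zeb2* lies at chr2:44983632-45117395 on the minus strand and was at 24.2, 75.2 and 62.4 normalized read counts in WT replicates 1, 2 and 3 and at 91.6, 167 and 83.9 in replicates 1, 2 and 3 labelled Bach2-cKO. All libraries labelled Bach2-cKO were above all WT libraries, replicate 2 labelled Bach2-cKO being the highest and WT replicate 1 the lowest. The means were 53.9 ± 26.5 (SD, n = 3) and 114 ± 45.8 (SD, n = 3). The log2 difference of 1.15 (standard error 0.55, 95% interval -0.066 to 2.36, limma adjusted p = 0.263) was the largest of the 9 genes tested and did not pass the thresholds. It was 0.66 without WT replicate 1 and 0.84 with the trend removed. *Zbtb7b* had a larger difference than *Zeb2* without WT replicate 1, at 0.75. The same held on 5 libraries in edgeR (0.77 against 0.73) and in DESeq2 (0.74 against 0.71). With the trend removed the values were 38.6, 66.0 and 62.3 in WT and 75.5, 145 and 85.8 in the libraries labelled Bach2-cKO, which still did not overlap. *Zeb2* is also expressed in myeloid and NK cells, and within each group it followed the order of the summed myeloid markers and of the innate-like and NK markers. The log2 differences of the 8 myeloid markers ran from -0.96 for *Cd68* to 1.62 for *Csf1r* (limma adjusted p = 0.293; 1.05 with the trend removed). Their median was 0.19, with 5 of the 8 above 0. *Csf1r* was at 14.1, 212 and 152 in WT replicates 1, 2 and 3 and at 214, 371 and 177 in replicates 1, 2 and 3 labelled Bach2-cKO. The part of such cells in the *Zeb2* values was not tested. *Zeb2os*, on the other strand within *Zeb2*, was at 2.05 to 10.1 over the 6 libraries, and whether the counting used strand is not stated.

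*Zeb1* was at 144, 472 and 375 normalized read counts in WT replicates 1, 2 and 3 and at 566, 298 and 250 in replicates 1, 2 and 3 labelled Bach2-cKO. The groups overlapped, with WT replicate 1 the lowest library and replicate 1 labelled Bach2-cKO the highest. The log2 difference of 0.24 (standard error 0.46, 95% interval -0.79 to 1.26, limma adjusted p = 0.790) was smaller than its standard error. It turned to -0.28 without WT replicate 1 and to -0.11 without replicate 1 labelled Bach2-cKO, and it was -0.14 with the trend removed. *Zeb1*, *Zeb2*, *Tcf12*, *Prdm1* and *Zbtb7b* all had their lowest value in WT replicate 1, that is 5 of the 9 genes tested, against 34.2% of all genes tested. Of the other E-box repressors, *Snai2* was at 66.6, 13.5 and 20.8 in WT and at 1.48, 0.670 and 0 in the libraries labelled Bach2-cKO (log2 difference -4.11, limma adjusted p = 0.151). It was the 1 lower gene at an unadjusted p under 0.05 of 2 tested, whose median log2 difference was -2.51. Of 16 tested corepressors, 3 were higher and 1 lower, with a median of 0.25 (-0.21 with the trend removed). The share of all genes at an unadjusted p under 0.05 was 20.4% in either direction. *Hdac7* was at a log2 difference of 0.92 (limma adjusted p = 0.159; 0.041 with the trend removed), *Kdm1a* at 0.66 (limma adjusted p = 0.163), *Ehmt2* at 0.69 (limma adjusted p = 0.233; -0.077 with the trend removed) and *Hdac2* at -0.71 (limma adjusted p = 0.147).

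**Figure D5:**
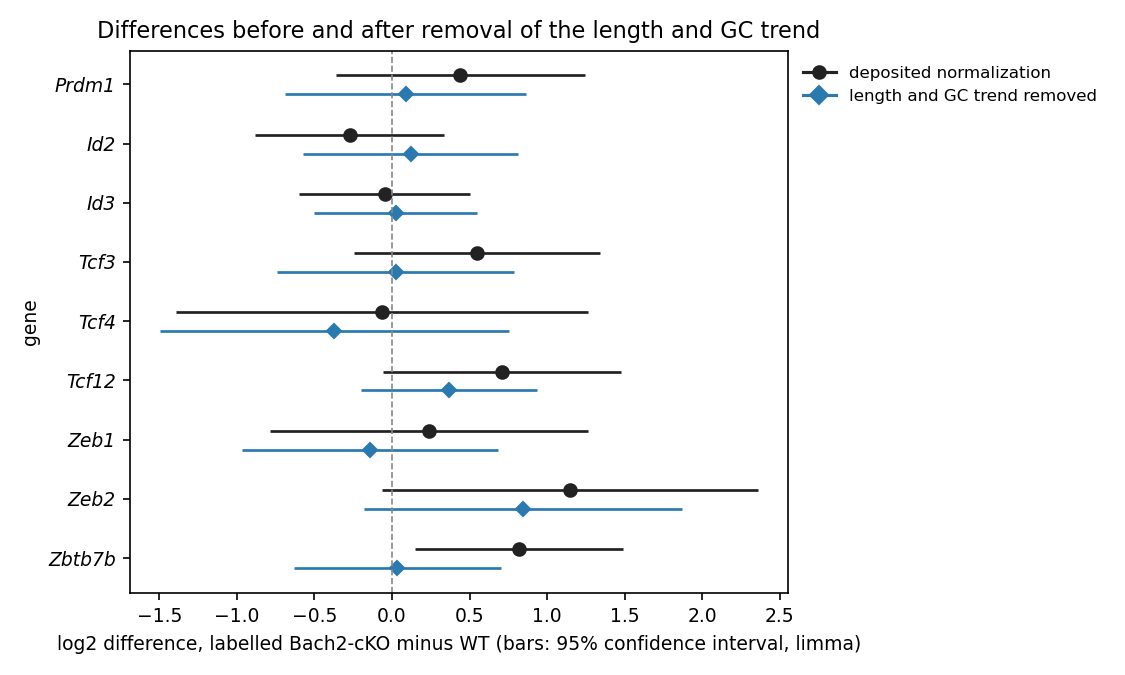
Log2 difference (libraries labelled Bach2-cKO minus WT) of the 9 genes tested, with 95% confidence intervals from limma, as deposited (black) and after removal of the length and GC trend (blue). The interval of *Zbtb7b* lies above 0 as deposited, from 0.15 to 1.49, and includes 0 with the trend removed.

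*Zbtb7b* encodes ThPOK, the factor that commits thymocytes to the CD4+ lineage and keeps CD8+ genes silent. It lies at chr3:89377644-89394776 on the minus strand and was at 125, 139 and 148 normalized read counts in WT replicates 1, 2 and 3 and at 231, 295 and 209 in replicates 1, 2 and 3 labelled Bach2-cKO. Each library labelled Bach2-cKO was above each WT library. The means were 137 ± 11.4 (SD, n = 3) and 245 ± 45.2 (SD, n = 3). The log2 difference was 0.82 (standard error 0.30, 95% interval 0.15 to 1.49, limma adjusted p = 0.185), and it was 0.68 to 0.93 when each library was left out in turn. With the length and GC trend removed it came to 0.036. The values were then 196, 162 and 181 in WT and 153, 215 and 189 in the libraries labelled Bach2-cKO, which overlap. The longest transcript of *Zbtb7b* has a GC content of 59.9%, and only *Tcf3* of the 10 genes has a higher one.

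In the list of CD4 and CD8 lineage genes around *Zbtb7b*, 3 of 10 were higher and 0 lower at an unadjusted p under 0.05, with a median log2 difference of 0.41 (0.22 with the trend removed). *Satb1*, a chromatin organizer, had a log2 difference of 1.76 (limma adjusted p = 0.141), *Gata3*, which acts upstream of *Zbtb7b* in the thymus, one of 1.48 (limma adjusted p = 0.141), and *Cd4* one of 0.49 (limma adjusted p = 0.193). With the trend removed these were 1.40, 1.33 and 0.31. *Cd8a* and *Cd8b1*, which ThPOK represses, summed to 176, 786 and 552 normalized read counts in WT and to 361, 332 and 413 in the libraries labelled Bach2-cKO, with *Cd8b1* the more abundant and neither at an unadjusted p under 0.05. Of 14 other BTB zinc finger genes tested, 3 were higher and 2 lower, with a median log2 difference of 0.69 (0.083 with the trend removed). *Zbtb7a*, a close relative of *Zbtb7b*, was at 131, 196 and 197 in WT and at 442, 368 and 278 in the libraries labelled Bach2-cKO (log2 difference 1.05, limma adjusted p = 0.149; 0.24 with the trend removed). *Zbtb44* had a log2 difference of 0.92 (limma adjusted p = 0.222), *Zbtb25* one of -0.92 (limma adjusted p = 0.171) and *Zbtb32* one of -2.02 (limma adjusted p = 0.199).

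*Zbtb16* encodes PLZF, which directs the development of natural killer T cells and other innate-like lymphocytes. It lies at chr9:48654297-48836222 on the minus strand and was at 0, 2.24 and 0 normalized read counts in WT replicates 1, 2 and 3 and at 7.39, 17.4 and 3.07 in replicates 1, 2 and 3 labelled Bach2-cKO. All libraries labelled Bach2-cKO were above all WT libraries, at levels of a few reads. The 3 libraries labelled Bach2-cKO held 34 recovered reads and the 2 WT libraries with recovered reads held 2. Per unit of depth, the log2 ratio of these reads was 3.32, with a 95% exact binomial interval of 1.36 to 6.43 that covers counting error only, since PCR copies were not told apart. Replicate 2 labelled Bach2-cKO held 26 of the 34 reads, and without it the log2 ratio was 2.16, with an interval of -0.16 to 5.44. Fitted without a filter on low values, the log2 difference was 2.53 (standard error 0.96, limma adjusted p = 0.224). Replicate 2 labelled Bach2-cKO also had the highest sum of innate-like and NK markers, 6883, while WT replicate 2 had a like sum of 6597 with *Zbtb16* at 2.24. Of these sums *Tyrobp* and *Fcer1g* gave 2866 and 2202 in replicate 2 labelled Bach2-cKO, and 2171 and 1646 in WT replicate 2. The part of innate-like cells in the *Zbtb16* values was not tested.

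The markers used in the sort and general T cell genes were detected in every library. Of *Cd4*, *Cd3e*, *Cd3d*, *Cd44*, *Pdcd1*, *Cxcr5* and *Ptprc*, the lowest value was 1090 normalized read counts, that of *Cd44* in WT replicate 1. Of these 7, *Cd44* (log2 difference 0.93, limma adjusted p = 0.146; 0.62 with the trend removed) and *Cd4* were higher and *Cd3e* (-1.02, limma adjusted p = 0.141) was lower at an unadjusted p under 0.05. Of 10 Tfh genes 3 were higher, *Tox2* (1.10, limma adjusted p = 0.146), *Bcl6* and *Tcf7*, and 1 was lower, *Icos* (-1.03, limma adjusted p = 0.146), with a median log2 difference of 0.040 (-0.034 with the trend removed). Of 7 regulatory T cell markers 2 were lower, *Foxp3* (-1.76, limma adjusted p = 0.141) and *Tnfrsf18* (-0.75, limma adjusted p = 0.158), and 0 were higher, with a median of -0.40 and *Ikzf2* the most abundant. Of 8 naive T cell markers 1 was higher, *Actn1* (0.92, limma adjusted p = 0.211; 0.56 with the trend removed), and 2 were lower, *Dapl1* (-3.49, limma adjusted p = 0.141) and *Ccr7* (-1.14, limma adjusted p = 0.177). The most abundant naive T cell marker was *Il7r*. The part of regulatory or naive T cells in the values of the 10 genes was not tested.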

How the data were processed

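Reads of 6 libraries (3 WT, 3 Bach2-cKO) had been aligned and counted per gene by the authors, who deposited a signal: read counts divided by DESeq2 size factors. The study's text names Tophat2 and HTSeq, while the submitters' processing notes name STAR 2.5.2b, DESeq2 1.20.0, R 3.5.1 and the builds GRCm38 and mm10. Which aligner made the table is not settled here. cDNA had been amplified before sequencing.

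Here log2(value + 1) was fitted with limma 3.58.1 in R 4.3.3 (trended variance, Benjamini-Hochberg over 11296 genes at 10 or more normalized read counts in 3 or more libraries). A log2 difference on this scale understates changes of low genes. Alternatives were edgeR 4.0.16 and DESeq2 1.42.0 on recovered reads of 5 libraries (2 WT), other pseudocounts, filters, normalizations and weights, and leaving out each library. The length and GC trend was fitted with mgcv 1.9.3, with longest transcripts of GENCODE M21 matched for 14329 genes by symbol and 364 by an older symbol. Procedures were tested on simulated data. Single genes named are the 10, *Bach2*, *Bcl6* and the up to 3 genes of smallest p in each direction of 21 lists. The most abundant marker of other cell types and the closest profiles are also named. *A430027c01rik*, *Bach2it1*, *Bach2os*, *Zeb2os*, *Lyz2*, *Csf1r*, *Fcer1g*, *Cd8a*, *Cxcr5* and *Rag2* were added after their values were seen. The members and lists were chosen with earlier results of these data known.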

Additional observations from a re-analysis of the deposited data

How the results depend on the processing

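Directions of the log2 differences of *Prdm1*, *Tcf3*, *Tcf12*, *Zeb2*, *Zbtb7b*, *Bach2* and *Bcl6* held in all 18 alternatives. *Id2* turned to 0.22 with library weights and 0.12 after removal of the length and GC trend, and ran from -0.53 to -0.059 on leaving out libraries. *Id3* turned to 0.13 with quantile normalization and 0.025 with the trend removed, and ran from -0.19 to 0.17 when each library was left out. *Tcf4* ran from -0.54 to 0.40 on leaving out libraries. *Zeb1* turned to -0.26 with library weights, -0.14 with the trend removed, -0.21 in edgeR and -0.23 in DESeq2, both on 5 libraries, and ran from -0.28 to 0.58 on leaving out libraries. Genes past the thresholds numbered 561 higher and 567 lower with library weights, which gave WT replicate 1 a weight of 0.206 and replicate 2 labelled Bach2-cKO one of 5.54, and 33 and 54 in DESeq2; none of the 9 genes tested was among them, while *Bach2* was, at 2.36 and 1.81. Those of the 10 genes below an unadjusted p of 0.05 numbered 2 without a filter (*Zbtb7b*, *Zbtb16*; 17.3% of all genes), 2 with quantile normalization (*Tcf12*, *Zbtb7b*; 21.4%), 6 with library weights (*Prdm1*, *Id3*, *Tcf3*, *Tcf12*, *Zeb2*, *Zbtb7b*; 47.2%) and 0 with the trend removed (14.5%). On leaving out libraries there were 0 (without replicate 2 labelled Bach2-cKO; 10.9%) to 3 (without WT replicate 2: *Tcf12*, *Zeb2*, *Zbtb7b*; 22.5%). *Zbtb7b* had an adjusted p of 0.00416 in limma with library weights, and of 0.109 to 0.966 in the other 17 alternatives, edgeR and DESeq2 included. Of the 9 genes, those with groups that did not overlap numbered 3 with quantile normalization (25.6% of all genes), 1 with the trend removed (21.2%) and 4 to 5 on leaving out libraries (31.0 to 50.2%). The cause of these shifts was not tested.

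The labels do not say whether same-numbered samples were paired. Deviations of same-numbered samples from their group means correlated at -0.069, 0.12 and -0.039 over the genes tested. With 3 samples in each group these values cannot show whether the samples were paired. With the replicate block *Zbtb7b* had a log2 difference of 0.82 (limma adjusted p = 0.263) and was again the 1 gene of the 9 below an unadjusted p of 0.05 (18.2% of all genes), while 0 genes passed the thresholds. Alternatives for the list medians, the groups that did not overlap, the *Zbtb16* reads and the ratios were chosen after seeing the data, except that the ratios of Id to E protein genes and of *Prdm1* to *Bcl6* without division by length were planned. Depth limits *Zbtb16*, at 0 to 26 reads in the 5 libraries with recovered reads.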
